A study of Mus musculus with 2 samples.

Results

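The colony-stimulating factors and their receptors were examined in back skin of wild type C57BL6/J mice, as a family of 8 genes fixed by name and found in full among the 24421 genes of the count table. The family comprised the 3 ligands Csf1, Csf2 and Csf3 and 5 genes for receptors or receptor subunits, Csf1r, Csf2ra, Csf2rb, Csf2rb2 and Csf3r. RNA-seq had been performed on 1 library of whole-layer skin stretched by a device for 5 days, labelled as 33% strain (stretched skin), and 1 library of whole-layer skin kept for the same time without strain (control skin). According to the methods, strain started at a set value and was raised in daily steps, the mice were young adult females whose hairs were in telogen, and the number of mice behind each library is not given in the sources used here. With 1 library per condition there was no replicate check and no p-value, so every interval below covers counting error only and compares these libraries and not the conditions.

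Colony-stimulating factors are secreted proteins that control the survival, growth and differentiation of myeloid cells. CSF-1 (macrophage colony-stimulating factor, M-CSF) acts through CSF-1R, a receptor tyrosine kinase on which most tissue macrophages, including those of the dermis, depend, whereas IL-34 is a second ligand of the same receptor and maintains the Langerhans cells of the epidermis. GM-CSF, encoded by Csf2, signals through a specific alpha subunit (Csf2ra) and the common beta subunit (Csf2rb), which is shared with the receptors for IL-3 and IL-5, and mice carry an additional, IL-3-restricted beta subunit gene, Csf2rb2. G-CSF, encoded by Csf3, drives neutrophil production through its receptor, the product of Csf3r.

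The beta subunit genes are close copies, which bears on how their counts can be read. In GENCODE M21, Csf2rb lies on chromosome 15 of mm10 from 78325752 to 78353847 on the plus strand, and Csf2rb2 lies beside it from 78282507 to 78305721 on the minus strand. Their longest annotated coding sequences, of 2688 and 2634 bases, were identical at 95.2% of the aligned bases. Of the 2253 coding windows of 76 bases, the length of a read, that could be aligned without a gap, 405 were identical, 758 differed at 1 or 2 bases and 1090 differed at 3 or more. The windows below, taken from the transcripts of the annotation and written 5′ to 3′ in lower case with the differing bases in capitals, show an identical stretch and the stretch with the most differences (14 of 76 bases). The identical windows lie in exon 7 of both transcripts, at chr15:78341391-78341466 for Csf2rb and chr15:78291843-78291918 for Csf2rb2. The least alike windows lie in exon 4 of both transcripts, at chr15:78338898-78338973 and chr15:78294358-78294433.
Csf2rb, exon 7: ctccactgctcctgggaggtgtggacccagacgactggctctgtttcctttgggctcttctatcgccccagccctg
Csf2rb2, exon 7: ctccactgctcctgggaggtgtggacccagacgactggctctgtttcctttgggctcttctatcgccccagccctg
Csf2rb, exon 4: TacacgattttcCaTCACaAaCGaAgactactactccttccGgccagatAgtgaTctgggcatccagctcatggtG
Csf2rb2, exon 4: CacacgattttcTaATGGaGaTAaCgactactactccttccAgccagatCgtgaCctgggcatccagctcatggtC

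A read from the exon 7 window could come from either gene, whereas a read from the exon 4 window could be assigned. Over all transcripts, 7.0% of the 76-base stretches of Csf2rb and 10.4% of those of Csf2rb2 occurred in the other gene without a mismatch, and 22.1% and 32.9% with at most 2 mismatches. How the counting program treated such reads is not stated, so the division of counts between the beta subunit genes is uncertain and their sum is given beside the single values.

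The table held 14152379 counts in control and 11648655 in stretched skin, so that 3 counts, used as the floor of detection, correspond to 0.212 and 0.258 CPM (counts scaled to a library total of 1000000). Markers fitted the tissue label, with Krt5 (basal keratinocytes) at 1969 and 1977 FPKM (CPM per kilobase of exon) in control and stretched skin and Col1a1 (fibroblasts) at 1810 and 3628 FPKM. Skeletal muscle genes were abundant in both libraries and went both ways, with log2 fold changes of -4.57 for Myh4 (91029 and 3156 counts) and -1.05 for Ckm, -0.07 for Acta1, and 1.10 for Myh1 and 1.09 for Mb. Across the 16255 genes above the floor in at least 1 library, the log2 fold changes had a median of -0.12, and TMM scaling (edgeR) would add 0.10 to each value.

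To evaluate whether the ligands differed in stretched skin, their counts were compared first. Csf1, on chromosome 3 from 107741048 to 107760469, had 926 counts in control and 974 in stretched skin, or 65.4 and 83.6 CPM. The log2 fold change was 0.35 (interval 0.22 to 0.49), so that Csf1 was 1.28-fold higher in stretched skin and did not reach the 2-fold threshold of the study. Of all measured genes, 18.1% had a larger log2 fold change than Csf1. No exonic base of Csf1 overlapped another gene, and no 76-base stretch of it was shared. Csf2, on chromosome 11 from 54247271 to 54249667, had 0 counts in both libraries, so that its level can be placed only against the floor of 3 counts, 0.212 CPM in control and 0.258 CPM in stretched skin, or the upper bound of the exact Poisson interval, 0.261 and 0.317 CPM. Csf3, on chromosome 11 from 98701263 to 98703629, had 1 count in control and 5 counts in stretched skin. The ratio of its CPM values was 6.07, with a log2 interval of -0.56 to 8.17, and a difference was therefore not detectable at this depth. Csf1 was thus the only ligand of the family with more than 5 counts in either library.

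The receptor genes were all higher in stretched skin, and their counting intervals lay wholly above 0, as did those of 18.1% of all measured genes. Csf1r, which marks monocytes and macrophages, had 1763 counts in control and 3216 in stretched skin, or 125 and 276 CPM. The log2 fold change was 1.15 (interval 1.06 to 1.23), a 2.22-fold difference. Exons of Hmgxb3 on the opposite strand cover 15.1% of the exonic bases of Csf1r on mm10, and the TruSeq kit named in the labels does not mark strand, so reads there cannot be assigned. Hmgxb3 itself went the other way, with 696 and 477 counts and a log2 difference of -0.26 (interval -0.44 to -0.09).

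The alpha and beta subunit genes were higher to different extents. Csf2ra, the ligand-specific alpha subunit on chromosome 19 from 61223957 to 61228429, had 168 counts in control and 277 in stretched skin, or 11.9 and 23.8 CPM. The log2 fold change was 1.002 (interval 0.72 to 1.29), which placed it at the 2-fold line. Csf2rb, the common beta subunit, had 331 and 711 counts, or 23.4 and 61.0 CPM, and a log2 fold change of 1.38 (interval 1.19 to 1.58). Csf2rb2 had 212 and 490 counts, or 15.0 and 42.1 CPM, and a log2 fold change of 1.49 (interval 1.25 to 1.73). Summed into a single gene, the beta subunits had 543 and 1201 counts, a 2.69-fold difference (log2 1.43, interval 1.28 to 1.58). Csf2rb made up 61.0% of the summed counts in control skin (exact Clopper-Pearson interval 56.7% to 65.1%) and 59.2% in stretched skin (56.4% to 62.0%), and the log2 difference between these ratios was -0.11 with an interval that included 0 (-0.41 to 0.20).

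Csf3r, the G-CSF receptor gene of neutrophils and their precursors, showed the largest rise of the receptors. It lies on chromosome 4 from 126024550 to 126044440 and had 50 counts in control and 235 in stretched skin, or 3.53 and 20.2 CPM. The log2 fold change was 2.51 (interval 2.07 to 2.98), a 5.71-fold difference, and only 0.554% of all measured genes had a larger value. The corresponding share was 2.91% for Csf2rb2, 3.33% for Csf2rb, 4.81% for Csf1r and 6.31% for Csf2ra.

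**Figure D1:**
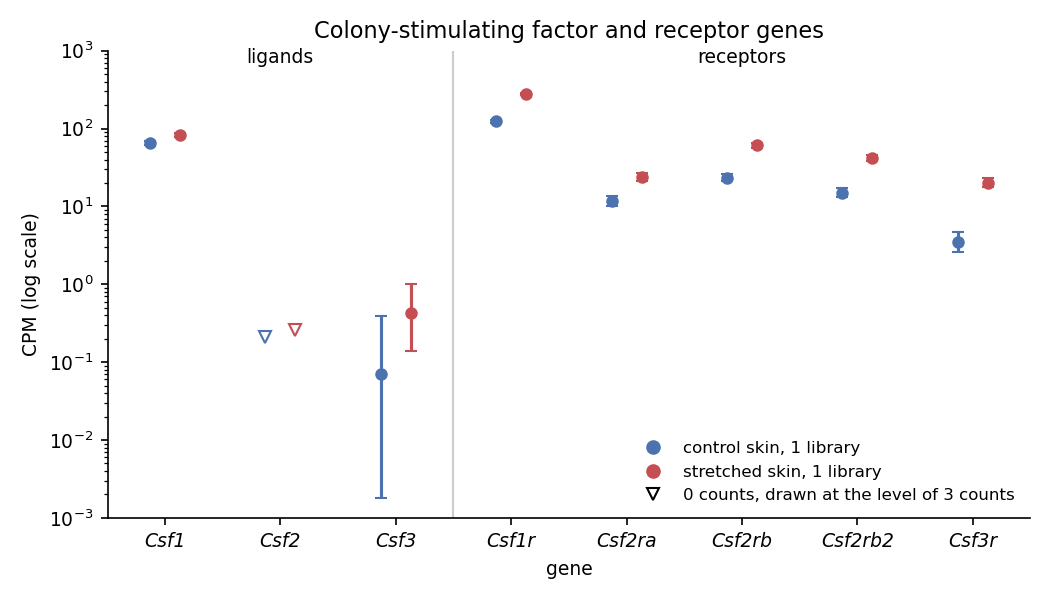
Level of each colony-stimulating factor and receptor gene in CPM on a log scale, with points for the control (blue) and stretched (red) library, exact 95% Poisson intervals as bars, and open triangles at the level of 3 counts for the gene with 0 counts. Csf1r was highest in both libraries at 125 and 276 CPM, and among the receptors Csf3r showed the widest gap, from 3.53 to 20.2 CPM.

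The methods of the study keep genes whose EV, the product of the FPKM values of both libraries, exceeds 10, and call those with a ratio of at least 2 or at most 0.5. The study took FPKM from Cufflinks, whereas here FPKM was computed from the counts and exon lengths, so the calls do not repeat those of the study. The same thresholds were applied after 1 had been added to each FPKM value, a step that the methods do not state. With the added value, 4 of the 8 genes were upregulated, Csf1r, Csf2rb, Csf2rb2 and Csf3r, compared with 2.61% of the 10908 genes that passed the filter, and 0 were downregulated, compared with 2.43%. Without it, 4 genes were again upregulated, Csf1r, Csf2ra, Csf2rb and Csf2rb2, compared with 2.94% of 9681 genes, and 0 were downregulated, compared with 2.85%. Csf1r, Csf2rb and Csf2rb2 were therefore called either way, whereas the calls of Csf3r and Csf2ra depend on the added value. Csf3r had an EV of 13.04 with it and of 5.47 without it, below the filter. Csf2ra had a ratio of 1.81 with it and of 2.003 without it. Csf1 passed the filter either way without being called, Csf2 and Csf3 did not pass it, and with the added value an EV threshold of 100 left only Csf1r as upregulated. The counting interval lay wholly above 0 for 6 of the 7 genes above the floor in at least 1 library, compared with 18.1% of all genes measured in this way, and wholly below 0 for 0 of them, compared with 33.5%. With Csf3 set to the floor, the median log2 fold change over these 7 was 1.15, against -0.12 for all genes.

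The order of the fold changes was examined in the 15 pairs that can be formed from the 6 genes with more than 3 counts in both libraries. The interval of the difference did not include 0 for 13 pairs. Csf3r exceeded Csf2rb2, the next in order, by 1.02 on the log2 scale (interval 0.51 to 1.55) and Csf1r by 1.37 (interval 0.91 to 1.84). The pairs that could not be separated were Csf2rb2 and Csf2rb, with a difference of 0.11 (interval -0.20 to 0.41), and Csf1r and Csf2ra, with a difference of 0.15 (interval -0.15 to 0.44). Csf1r exceeded its ligand gene Csf1 by 0.79 (interval 0.64 to 0.95).

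Levels were compared between genes as FPKM, using the union of exons as length. In control skin the order was Csf1r (21.6 FPKM), Csf1 (12.4), Csf2ra (4.14), Csf2rb (3.21), Csf2rb2 (3.16) and Csf3r (0.979). The exact Poisson intervals of Csf2ra (3.53 to 4.81 FPKM), Csf2rb (2.88 to 3.58) and Csf2rb2 (2.75 to 3.62) overlapped, and those of the other neighbours in the order did not. In stretched skin the levels were 47.8 FPKM for Csf1r, 15.8 for Csf1, 8.87 for Csf2rb2, 8.39 for Csf2rb, 8.28 for Csf2ra and 5.59 for Csf3r, and the intervals of Csf2rb2, Csf2rb and Csf2ra again overlapped. The ratio of Csf1r to Csf1 in FPKM was 1.74 in control and 3.02 in stretched skin. Il34, the other ligand gene of CSF-1R, stood at 15.6 and 16.3 FPKM, and the ratio of Csf1 to Il34 in FPKM was 0.793 in control and 0.974 in stretched skin. In raw counts, where the longer exons of Csf1 give it more reads for the same level, Csf1 made up 68.1% of the summed counts of Csf1 and Il34 in control skin (interval 65.6% to 70.6%) and 72.4% in stretched skin (69.9% to 74.8%), and the log2 difference between these ratios was 0.30 (interval 0.05 to 0.54).

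Related ligands and receptors were compared as a fixed list. Of the other 5 ligand genes, Il3 had 0 counts in both libraries and Il5 had 3 and 2. Il34 had 433 and 371 counts (log2 fold change 0.06, interval -0.15 to 0.26), Flt3l, a growth factor of dendritic cells, had 84 and 97 (0.49, interval 0.05 to 0.93), and Kitl, the stem cell factor gene that supports mast cells and melanocytes, had 1055 and 560 (-0.63, interval -0.78 to -0.48). Il3ra, the alpha subunit that joins the beta subunits to form the IL-3 receptor, had 103 counts in control and 196 in stretched skin (1.21, interval 0.86 to 1.57). Il5ra, the partner of Csf2rb in the IL-5 receptor, had 3 and 5 counts, a ratio with an interval that included 0 (-1.34 to 3.70 on the log2 scale). Among the other receptor tyrosine kinases of the class of CSF-1R, Flt3 had 16 and 33 counts (1.33, interval 0.42 to 2.29), Pdgfrb 1166 and 1828 (0.93, interval 0.82 to 1.04), Pdgfra 1781 and 1659 (0.18, interval 0.08 to 0.28) and Kit 470 and 250 (-0.63, interval -0.86 to -0.41). With 1 added to each FPKM value none of these 11 genes was called, and without it 1 was upregulated, Il3ra, against 2.61% up and 2.43% down of all genes that passed the filter with the added value and 2.94% and 2.85% without it. So few calls among 11 genes are near those shares. Within the receptor class Kit was thus lower in the stretched library, together with its ligand gene Kitl, whereas Csf1r was higher.

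**Figure D2:**
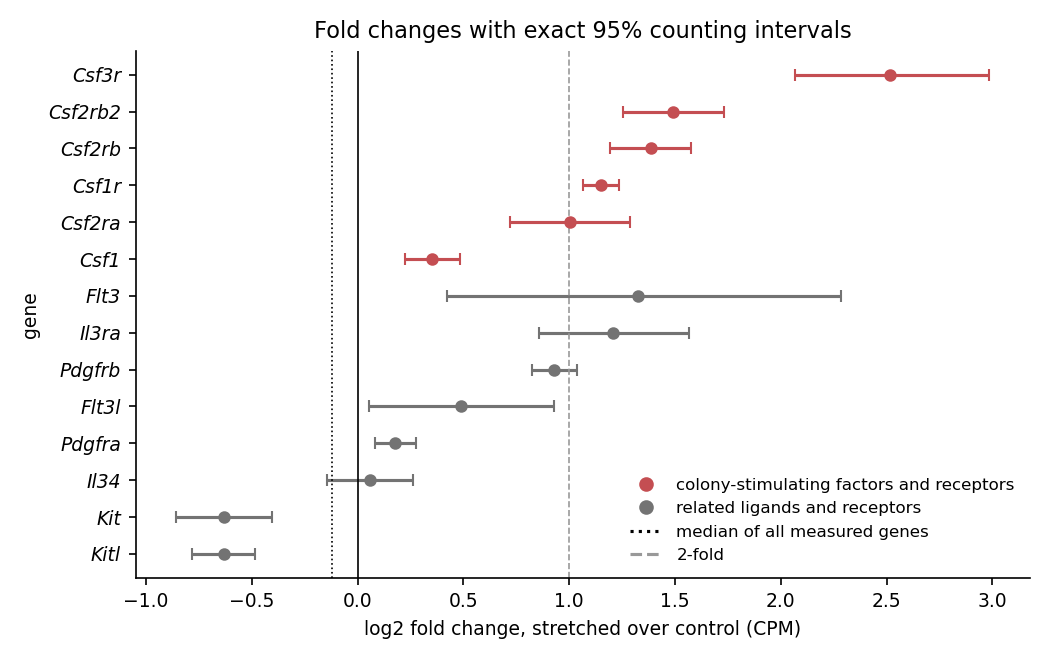
Log2 fold change of CPM in stretched over control skin for the family (red) and for related ligands and receptors (grey) with more than 3 counts in both libraries, with exact 95% counting intervals, the median of all measured genes (dotted) and the 2-fold line (dashed). Csf3r lies farthest to the right at 2.51, Csf1 lies at 0.35 among the related genes, and Kit and Kitl lie at -0.63.

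Genes that transmit the signals of these receptors were measured as a list. Of 20 signal transduction genes, 12 had an interval above 0, 3 had an interval below 0 and 5 included 0, against 18.1% above and 33.5% below 0 over all measured genes, with a median log2 fold change of 0.38 and 1 gene upregulated with 1 added to each FPKM value (2.61% of all genes that passed the filter) or 3 without it (2.94%). The gene upregulated either way was Tyrobp, the adaptor DAP12 that works with CSF-1R and other myeloid receptors, which rose from 254 counts to 626 (1.58, interval 1.37 to 1.80). The others were Inpp5d and Lyn. Inpp5d, the phosphatase SHIP1 of blood cells, had 228 and 446 counts (1.25, interval 1.02 to 1.49), and Lyn, a Src family kinase, had 262 and 476 (1.14, interval 0.92 to 1.37). Jak2, the kinase bound to the beta subunit, had 776 and 607 counts (-0.07, interval -0.23 to 0.08), and its substrate genes Stat5a and Stat5b stood at 0.32 (interval 0.13 to 0.52) and 0.10 (interval -0.04 to 0.24). Cish, a target gene of STAT5 signalling, had 527 counts in control and 326 in stretched skin (-0.41, interval -0.62 to -0.21), whereas Socs3, a target gene of STAT3 and an inhibitor of G-CSF signalling, had 795 and 884 (0.43, interval 0.29 to 0.57).

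Transcription factor genes of the myeloid lineage were listed next. Of 12 genes, 5 had an interval above 0 and 3 below 0, against 18.1% and 33.5% of all measured genes, and the median was 0.46. Spi1, which encodes PU.1, the factor required for transcription of Csf1r and other receptor genes of the family, rose from 180 counts to 393 (1.41, interval 1.15 to 1.67). Spi1 was the only one of the 12 upregulated, with the added value (2.61% of all genes that passed the filter) or without it (2.94%). Irf8, a factor of monocytes and dendritic cells, had 99 and 213 counts (1.39, interval 1.04 to 1.75). Cebpa and Cebpb, which are also active in fat cells and epidermis, stood at -0.15 (interval -0.22 to -0.08) and -0.13 (interval -0.23 to -0.03), and Cebpe, a factor of late neutrophil maturation, had 3 and 4 counts.

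Upstream sequence was available from RefSeq (GRCm38.p6) for 5 of the 8 genes, and the 250 bases before the RefSeq start are shown for Csf2ra and Csf2rb2, receptor subunit genes whose counts were higher together. The RefSeq starts of Csf3r and Csf2ra lie inside the spans of these genes in GENCODE, so that the end of each window, with the Csf3r match and all or part of the Csf2ra matches described here, is transcribed by that annotation. The overlap is a few bases for Csf2ra and longer for Csf3r, whose letters are not shown. The letters GAGGAA, the core of the PU.1 site, were searched on both strands (TTCCTC on the other) and are set in capitals, in 5′ to 3′ direction of the gene. The Csf2ra window is chr19:61228419-61228668 on the minus strand, and that of Csf2rb2 chr15:78305722-78305971 on the minus strand.
Csf2ra: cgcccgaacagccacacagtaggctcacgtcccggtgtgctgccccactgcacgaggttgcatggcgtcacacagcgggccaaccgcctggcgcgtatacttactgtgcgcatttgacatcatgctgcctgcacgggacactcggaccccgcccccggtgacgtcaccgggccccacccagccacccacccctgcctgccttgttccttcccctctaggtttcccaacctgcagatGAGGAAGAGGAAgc
Csf2rb2: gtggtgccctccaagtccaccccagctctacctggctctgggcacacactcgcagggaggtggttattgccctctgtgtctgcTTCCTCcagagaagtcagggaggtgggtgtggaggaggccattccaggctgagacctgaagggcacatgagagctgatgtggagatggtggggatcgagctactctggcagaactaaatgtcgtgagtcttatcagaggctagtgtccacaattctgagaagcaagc

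Csf3r held 1 match, beginning 86 bases before the start, Csf2rb2 held 1 match, beginning 167 bases before it, and Csf2ra held 2 matches in tandem, beginning 14 and 8 bases before it. Csf1 and Csf2 held 0 matches. Of the 32851 promoter windows of the same length, 23.3% held at least 1 match. A core of the C/EBP site (TTGCNNAA) occurred in 9.56% of all windows and, within the family, in Csf2, while cores of the RUNX site (TGTGGT, 14.0%) and the AP-1 site (TGANTCA, 6.75%) occurred in none of the 5. Within the family no matches overlapped each other, and they are a description of the letters and not of binding.

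Cytokines known to induce colony-stimulating factors were measured as a further list. Of 8 genes, 2 were upregulated with 1 added to each FPKM value, against 2.61% of all genes that passed the filter, and 2 without it, against 2.94%. Il1b rose from 37 counts to 179 (2.56, interval 2.04 to 3.11) and Il33, an alarmin of epithelial and stromal cells, from 338 to 690 (1.31, interval 1.121 to 1.502). Tnf had 17 and 36 counts (1.36, interval 0.49 to 2.29), whereas Il1a had 130 and 51 (-1.07, interval -1.57 to -0.59). Il1a was downregulated only without the added value, against 2.85% of all genes that passed the filter in that way. Il6 had 14 and 21 counts and Tslp 39 and 39, with intervals that included 0. Il17a and Il17f had 1 count each in control and 0 in stretched skin.

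In whole skin, a larger number of cells that express a receptor and more of its RNA per cell cannot be told apart, so the receptor genes were set beside leukocyte markers. All 5 genes expressed across leukocytes (Ptprc, Coro1a, Laptm5, Cd53 and Lcp1) had an interval above 0, against 18.1% of all measured genes, with a median log2 fold change of 1.33 and a summed level of 186 CPM in control and 468 CPM in stretched skin. Of 16 macrophage and monocyte markers, 15 had an interval above 0, against the same 18.1%, and Mertk (-0.12, interval -0.37 to 0.12) included 0. Their median was 1.37 and their summed level was 878 CPM in control and 2105 CPM in stretched skin. Within this list Adgre1, which encodes F4/80, stood at 1.56, and the monocyte genes Ly6c2, with 5 and 36 counts, and Cx3cr1, with 19 and 90, stood at 3.13 and 2.52. Fcgr1, with 49 and 259 counts, stood at 2.68, and Ccr2, with 319 and 622, at 1.24. Mrc1 and Cd163 stood lower, at 0.945 and 0.80.

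Relative to the summed counts of these markers, receptor genes other than Csf3r differed less between the libraries than they did in CPM. Csf1r and Csf2ra were lower in stretched skin per count of all leukocytes. Csf1r had 14.2 counts per 100 counts of the macrophage list in control and 13.1 in stretched skin, a log2 difference of -0.11 (interval -0.20 to -0.02). Without Lyz2, the macrophage gene with the most counts, the difference was -0.06 and its interval included 0 (-0.15 to 0.03), and against the geometric mean of the list it was -0.35. Per 100 counts of the genes of all leukocytes, Csf1r changed from 67.0 to 59.0 (log2 difference -0.18, interval -0.29 to -0.07), Csf2ra from 6.38 to 5.08 (-0.33, interval -0.62 to -0.03), Csf2rb from 12.57 to 13.04 (0.05, interval -0.15 to 0.26) and Csf2rb2 from 8.05 to 8.99 (0.16, interval -0.09 to 0.41). Csf3r stood apart, at 1.90 and 4.31 counts per 100 (1.18, interval 0.73 to 1.66). These comparisons do not depend on the scaling of the libraries, and all marker ratios of genes other than Csf1r, here and with the neutrophil list, were chosen after the data were seen.

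**Figure D3:**
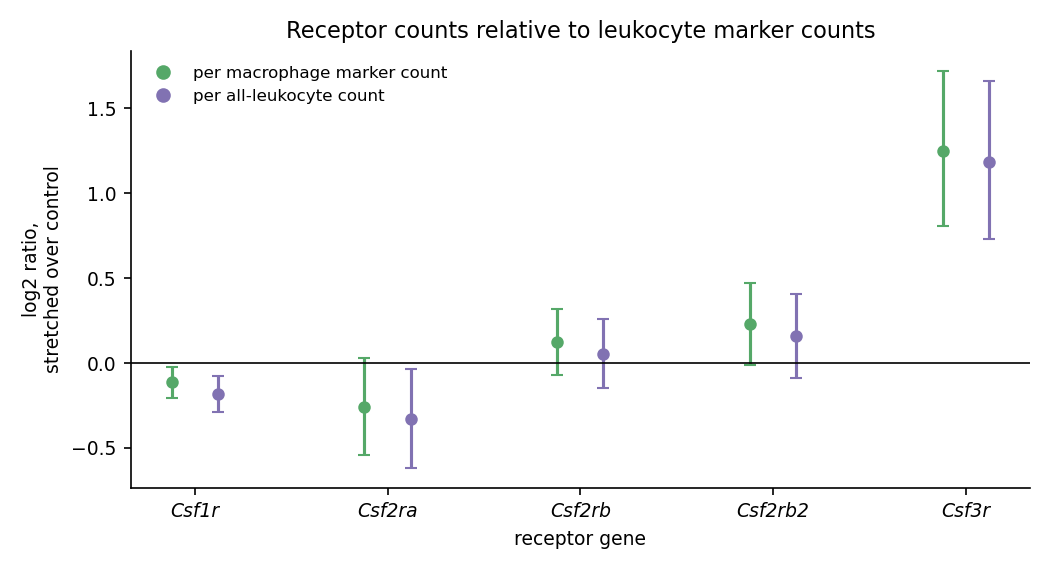
Log2 ratio, stretched over control, of the counts of each receptor gene relative to the summed counts of the macrophage markers (green) or of the genes of all leukocytes (purple), with exact 95% counting intervals. Csf3r lies at 1.25 and 1.18, and the other 4 receptor genes lie between -0.33 and 0.23.

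Neutrophil markers were examined beside Csf3r. Of 12 genes, Ly6g was not analysed here, 4 were at or below the floor in both libraries and 7 were measured, of which 6 had an interval above 0, against 18.1% of all measured genes (median 1.90). The summed level of the list was 23.2 CPM in control and 66.5 CPM in stretched skin. Retnlg, a gene of circulating neutrophils, had 1 and 31 counts (log2 ratio 5.24, interval 2.65 to 10.6), Cxcr2, the chemokine receptor of neutrophils, had 25 and 77 (1.90, interval 1.24 to 2.62), and S100a8, which is also expressed by stressed keratinocytes, had 57 and 283 (2.59, interval 2.18 to 3.03). Granule genes had few counts, with 0 and 0 for Ngp, 0 and 1 for Ltf, 2 and 2 for Elane, 0 and 3 for Mpo, 6 and 3 for Camp (log2 ratio -0.72, interval -3.35 to 1.51) and 4 and 18 for Mmp8 (2.45, interval 0.85 to 4.47). Csf3r had 15.2 counts per 100 counts of the list in control and 30.4 in stretched skin (log2 difference 0.99, interval 0.505 to 1.503), but this value rests on Mmp9, a gelatinase gene that other skin cells also express, which had 164 and 169 of the 328 and 774 counts of the list (log2 fold change 0.32, interval 0.006 to 0.643). Without Mmp9 the difference was 0.35 with an interval that included 0 (-0.17 to 0.89), and without Mmp9, S100a8 and S100a9 it was 0.40 (interval -0.32 to 1.12). With Mmp9 kept and S100a8 and S100a9 left out it was 1.64 (interval 1.12 to 2.18). A difference between Csf3r and the other neutrophil genes was therefore not detectable once Mmp9 was left out. The part of neutrophil numbers in the rise of Csf3r was not tested.

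Other cell types that carry these receptors or can make their ligands were measured as further lists. Mast cell genes (7) showed a median of 0.59 and 6 intervals above 0, the 8 dendritic cell genes a median of 0.67 and 5 intervals above 0, and the 4 measured eosinophil genes had 0 intervals above or below 0. The 7 measured T, NK and lymphoid genes had a median of 0.42, with 3 intervals above 0 and 1 below. Over all measured genes these shares were 18.1% above and 33.5% below 0. Osteoclast-type genes, which depend on CSF-1 in bone, had 5 measured members with a median of 0.94 that went both ways, with 1542 and 3181 counts for Ctsk (1.33, interval 1.24 to 1.41) and 709 and 450 for Acp5 (-0.37, interval -0.55 to -0.20). Which skin cells express Ctsk and Acp5 was not tested. Dcstamp, a gene of osteoclast fusion, had 4 and 8 counts, and Calcr, Oscar and Ocstamp had at most 2 in either library. Among possible sources of Csf1, the medians were 0.56 for 6 fibroblast genes, 0.40 for 6 endothelial genes, 0.01 for 6 keratinocyte genes and -0.48 for 7 mature skeletal muscle genes. No fibroblast gene lay near the median of its list. The collagen genes Col1a1, Col1a2 and Col3a1 stood at 1.003, 0.87 and 0.96, and Dcn, Lum and Dpt at 0.06, 0.25 and 0.22. The part of fibroblasts, endothelial cells, keratinocytes and skeletal muscle in the level of Csf1 was not tested.

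**Figure D4:**
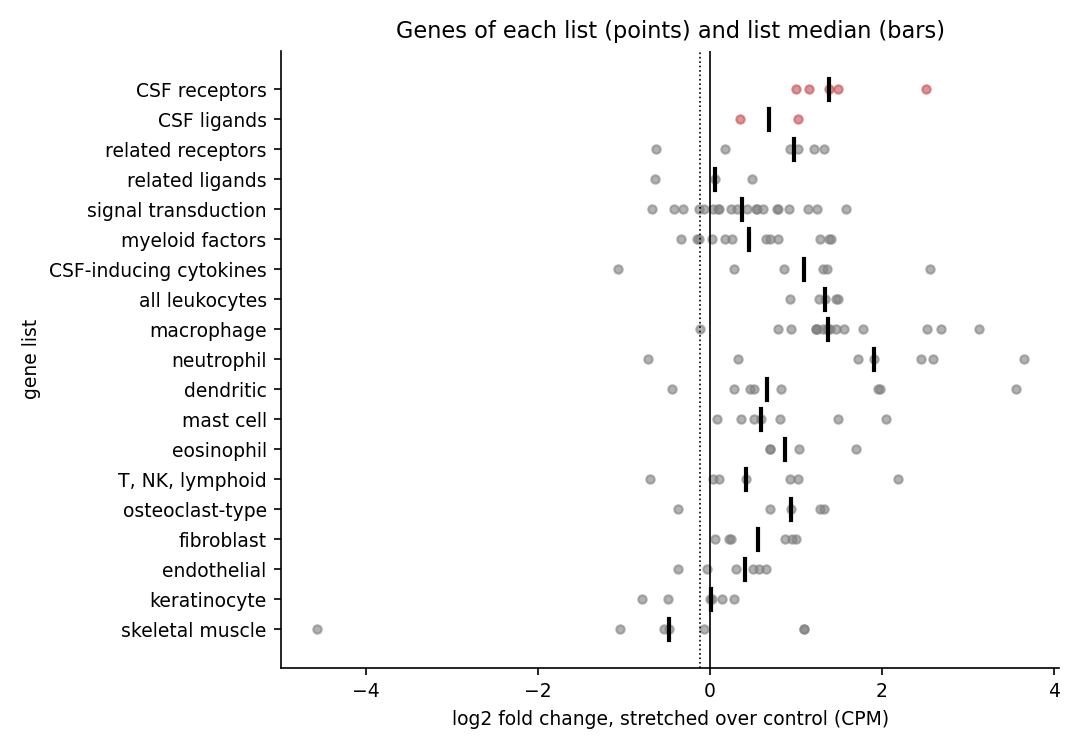
Log2 fold change of CPM in stretched over control skin for the genes of each list above 3 counts in at least 1 library (points) with the list median (bars), the family in red and the median of all measured genes dotted, where counts of 3 or fewer were set to 3. The receptors (median 1.38) lie at the level of the genes of all leukocytes (1.33) and of macrophages (1.37), and skeletal muscle lies lowest at -0.48.

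The genes of these lists whose fold change was nearest to that of Csf1r were Lyn (1.14), Myh1 (1.10) and Mb (1.09), and those nearest to Csf1 were Cpa3 (0.37), Mmp9 (0.32) and Stat5a (0.32). The likeness is the difference in log2 fold change over 2 libraries among genes with at least 100 counts, a measure that also brings together genes of different cell types, such as the muscle genes Myh1 and Mb.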

How the data were processed

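RNA of whole-layer back skin was sequenced in 2 libraries, 1 of stretched and 1 of control skin. Single-end reads of 76 bases were quality filtered, and TopHat2 placed them on mm10. The values the authors deposited are raw counts per gene symbol, without normalization, and the counter, its annotation and its handling of strand and shared reads are not given in the sources used here. The tool and build names follow the submitters' processing notes and the methods.

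From the counts, CPM was computed with library totals, and FPKM also with the exon union of GENCODE M21 (23384 symbols matched by name, 669 by synonym, 368 without a length, all 8 family members matched). A fold change is a CPM ratio, bounded by its exact 95% Clopper-Pearson interval. Counts of 3 or fewer were set to 3 in list medians, while single genes with 1 to 3 counts are given as plain ratios. Calls used the EV and fold thresholds of the study's methods with a pseudocount of 1 FPKM, which those methods do not state, and again without it. No test was possible with 1 library per condition. Named genes were the family, the members of 17 lists, the 3 genes of nearest fold change and Hmgxb3, which overlaps Csf1r. The members and lists were chosen with earlier results of these data known. Alternatives were 4 other scalings (edgeR 4.0.16, DESeq2 1.42.0), other pseudocounts and EV thresholds, CPM in place of FPKM, 1 CPM added, a minimum of 20 counts and summed beta subunits. The calls and intervals were tested on simulated data with counting error only, which do not cover variation between animals or dissections. Python 3.11.15, scipy 1.17.1 and R 4.3.3 were used.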

Additional observations from a re-analysis of the deposited data

How the results depend on the processing

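The number of upregulated members was 4 with each of the 4 other scalings, without an EV filter and with CPM, 4 without a pseudocount (Csf2ra in place of Csf3r), 3 with a pseudocount of 0.1, and 1 with EV above 100, which tests fewer genes. The number downregulated was 0 throughout. The numbers of intervals above 0 (6) and below 0 (0) were the same with each scaling, and summing the beta subunits, which leaves fewer genes, gave 5 above 0. The median log2 fold change of the members was 1.25 with TMM, 1.26 with median of ratios and 1.25 with upper quartile, since scaling adds a single shift to every value. With a minimum of 20 counts, which leaves out Csf3, it was 1.27. Csf1r per macrophage marker count changed from -0.11 to -0.35 on the log2 scale with the geometric mean (the cause was not tested). Among 46 values of single genes, 5 moved past their counting interval, 3 for Csf1r with TMM, median of ratios or upper quartile and 2 for Csf3r per leukocyte count (1.18), which became 0.35 with the neutrophil list without Mmp9 and 0.40 without S100a8 and S100a9 as well, and 0 of the 35 fold changes changed sign. Of the 11 ratios to other marker lists, 2 changed sign with the neutrophil list, Csf2rb from 0.05 to -0.14 and Csf2rb2 from 0.16 to -0.03, with intervals that included 0. No paired analysis was possible because each condition has a single library, and for the same reason none was left out in turn. Depth limits Csf2 and Csf3 most.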
